A study of Mus musculus with 6 samples.

Results

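The 10 genes described here encode the histone methyltransferase DOT1L, 4 of its cofactors and 5 components of the super elongation complex. They were taken by symbol (*Dot1l*, *Mllt1*, *Mllt3*, *Mllt6*, *Mllt10*, *Aff1*, *Aff4*, *Cdk9*, *Ccnt1* and *Ell2*) from a table of 26656 genes, and each was found once. Their transcripts were measured in N2a cells, a mouse neuroblastoma line labelled WT in genotype, after reduction of the nucleolar chaperone NPM1. The NPM1 KD group carried the plasmid pLKO.1-shNpm1 and the CTR group pLKO.1-shCTR, a non-target shRNA, and RNA was taken 72 h after transfection. Puromycin at 9.3 µg/ml was given from 24 h on. The labels describe this selection for the knockdown experiments without a separate statement for CTR. Each group has 3 libraries, which the description of the study calls 3 biological replicates, whereas the treatment protocol speaks of 2. If some share a culture, p-values measure a spread that may be technical. The knockdown was transient, rests on 1 shRNA construct and was read in 1 cell line.

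DOT1L is the enzyme that methylates a lysine in the globular core of histone H3, a mark found along transcribed genes. It works with a pair of reader proteins of the YEATS family, ENL (*Mllt1*) and AF9 (*Mllt3*), which bind acylated histone tails, and with a pair of PHD finger proteins, AF10 (*Mllt10*) and AF17 (*Mllt6*), of which AF10 is known to promote higher degrees of methylation. ENL and AF9 are also subunits of the super elongation complex, where they bind the scaffolds AFF1 and AFF4. The scaffolds hold the kinase P-TEFb, made of CDK9 and cyclin T1 (*Ccnt1*), and the ELL proteins such as ELL2. P-TEFb phosphorylates RNA polymerase II and the pausing factors, which releases the paused polymerase into elongation. Several of these genes are known as fusion partners of MLL (*Kmt2a*) in leukaemia, in which DOT1L is a studied drug target.

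Levels were deposited as rlog values, regularized log2 expression per library, in which every value of size 1 or more is a whole number. A step of 1 is therefore the smallest difference a library can show. Of the 10 genes, 6 had a mean on this scale no lower than log2 of 10 and were tested together with all other such genes, 5752 in all. In this fit the SE of a gene follows its mean level and is shared with other genes of that level. SE, interval and p-value therefore do not measure the gene's own spread between libraries. *Mllt1*, *Mllt3*, *Aff1* and *Ell2* lay below this limit and are described by their reads. In bulk RNA, fewer cells expressing a gene and less RNA per cell cannot be told apart. *Npm1*, the target of the shRNA, had the value 10 in each CTR library and 8 in each NPM1 KD library. It fell by 2 on the log2 scale (SE 0.33, 95% interval −2.66 to −1.34, adjusted p = 3.23e-06, limma with Benjamini-Hochberg adjustment over all tested genes), so the labels matched the targeted transcript in 6 of 6 libraries.

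None of the 6 tested genes passed the test between NPM1 KD and CTR. At an adjusted p under 0.05, 0 of 6 were called by limma, against 0.487% of all tested genes (0.0695% higher and 0.417% lower in NPM1 KD). An unadjusted p under 0.05 was reached by 0 of 6, against 14.1% of all tested genes. In 0 of 6 did the NPM1 KD libraries lie apart from the CTR libraries, against 5.6% of all tested genes (2.19% higher and 3.41% lower). Beside these shares, 0 of 6 is near the background. The mean was higher in NPM1 KD for *Dot1l*, lower for *Mllt6*, *Mllt10* and *Cdk9*, and equal for *Aff4* and *Ccnt1*. Over all tested genes 24.6% had a higher mean, 27.4% a lower mean and 48% equal means. The median difference of the 6 genes was −0.17 and that of all tested genes 0. No difference among the 6 was larger than 0.33 in size, whereas the smallest difference called in any tested gene was 1.33. Even a full step of 1 between all libraries of the groups was not called. *Imp4*, at 4 in each CTR and 5 in each NPM1 KD library, had an adjusted p of 0.0791 (limma). The count of 0 called thus says little about changes of up to 1 step.

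**Figure D1:**
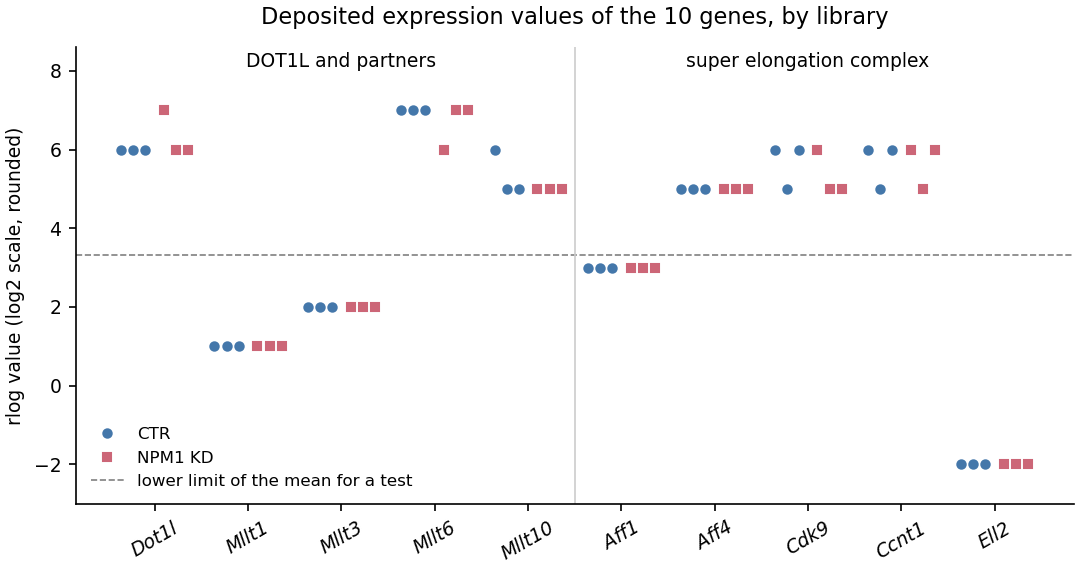
Deposited rlog values (log2 scale, vertical axis) of the 10 genes in each of the 3 CTR (circles) and 3 NPM1 KD (squares) libraries, with replicates 1 to 3 from left to right; the dashed line is the lower limit of the mean for a test. Most genes hold one value or neighbouring whole values in both groups, and Mllt1, Mllt3, Aff1 and Ell2 lie below the line with one value each.

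*Dot1l* (ENSMUSG00000061589), the methyltransferase itself, stood at 6 on the rlog scale in CTR replicates 1 to 3. In NPM1 KD it was 7 in replicate 1 and 6 in replicates 2 and 3. A single NPM1 KD library thus stood 1 step above the rest, and the groups overlapped. The log2 difference was 0.33 (SE 0.34, 95% interval −0.34 to 1.01, adjusted p = 0.713, limma). It rests on that library, since without NPM1 KD replicate 1 the difference was 0. The authors' mean normalized count of *Dot1l*, over all 6 libraries, was 80.5, which at these depths stands for about 502 reads if the groups had the same level. Counting alone then gives a log2 difference an SE of 0.13, less than the SE of the test, which also carries rounding. The interval does not exclude an increase of up to 1.01 on the log2 scale, nor a decrease of up to 0.34.

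The PHD finger cofactors were both measured above the limit. *Mllt6* (ENSMUSG00000038437), which encodes AF17, had the value 7 in all 3 CTR libraries and 6, 7 and 7 in NPM1 KD replicates 1 to 3. Here too NPM1 KD replicate 1 alone stood apart, in this case 1 step below. The log2 difference was −0.33 (SE 0.35, 95% interval −1.01 to 0.35, adjusted p = 0.713, limma), and it was 0 without that library. *Mllt10* (ENSMUSG00000026743), which encodes AF10, read 6, 5 and 5 across the CTR replicates against 5 in every NPM1 KD library. The high sample was CTR replicate 1, and without it the difference was 0. With all 6 libraries it was −0.33 (SE 0.33, 95% interval −0.98 to 0.32, adjusted p = 0.713, limma). The mean normalized count was 107 for *Mllt6* and 41.3 for *Mllt10*, or about 669 and 258 reads.

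Of the super elongation complex scaffolds, *Aff4* (ENSMUSG00000049470) had the value 5 in all 6 libraries. Its log2 difference was 0 (SE 0.33, 95% interval −0.65 to 0.65, adjusted p = 1, limma), with a mean normalized count of 30.1. Such a flat row was common, as 40.2% of all tested genes held one value in all 6 libraries. A change smaller than the rounding step would not show in it.

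The P-TEFb subunits varied within both groups. *Cdk9* (ENSMUSG00000009555), the kinase, read 6, 5 and 6 in the CTR replicates against 6, 5 and 5 in those of NPM1 KD. *Ccnt1* (ENSMUSG00000011960), its cyclin, had 6, 5 and 6 in both groups. The libraries of *Cdk9* and *Ccnt1* differed from each other only in NPM1 KD replicate 3, and in both genes the groups overlapped throughout. The log2 difference was −0.33 for *Cdk9* (SE 0.34, 95% interval −0.99 to 0.33, adjusted p = 0.713, limma). For *Ccnt1* it was 0 (SE 0.34, 95% interval −0.66 to 0.66, adjusted p = 1, limma). The mean normalized count was 45.5 for *Cdk9* and 58.5 for *Ccnt1*, about 284 and 365 reads.

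**Figure D2:**
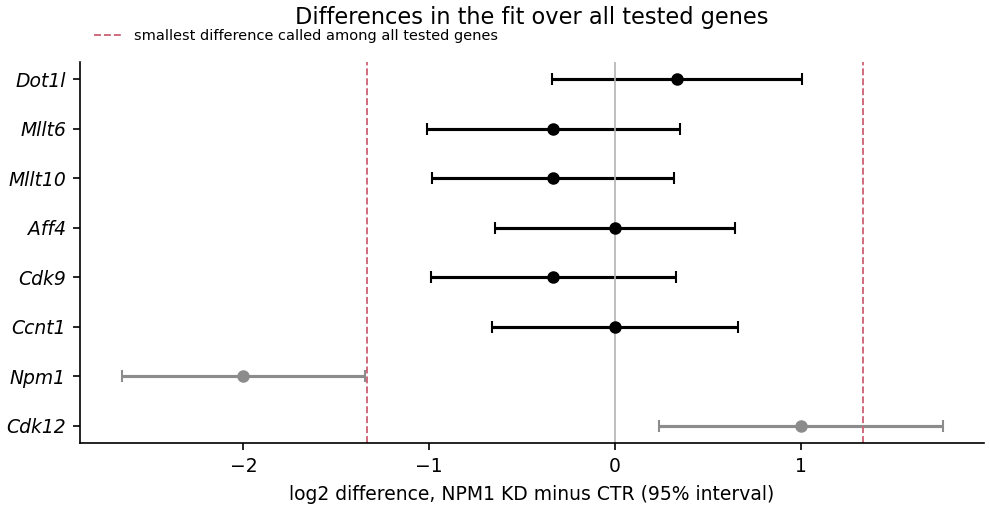
Log2 differences of NPM1 KD minus CTR (horizontal axis, points) with 95% intervals (bars) from the limma fit over all tested genes, for the 6 tested genes (black), Npm1 and Cdk12 (grey); dashed lines mark plus and minus 1.33, the smallest difference called. The intervals of the 6 genes all include 0 and stay inside the dashed lines, while that of Npm1 does not reach 0.

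The 4 genes below the limit each held one rlog value in all 6 libraries, which was 3 for *Aff1*, 2 for *Mllt3*, 1 for *Mllt1* and −2 for *Ell2*. The rlog scale pulls genes with few reads towards their mean, and rounding removed what was left. Their whole reads per library could be recovered from the authors' mean normalized count, which for few reads has a single solution in whole reads. They are given below as reads and as normalised counts, reads divided by the size factor of the library. Size factors were 1.24, 1.3 and 1.11 in CTR replicates 1 to 3 and 0.784, 0.833 and 0.961 in NPM1 KD. Every NPM1 KD library was thus shallower than every CTR library, with a mean lower by a factor of 1.42, and the part of this depth in the results was not tested. Intervals of ratios are exact binomial 95% intervals over the summed reads of each group and cover counting error only. With 3 libraries against 3, the two-sided exact permutation test cannot give a p below 0.1.

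*Mllt3* (ENSMUSG00000028496), encoding the YEATS reader AF9, had 8, 2 and 10 reads in CTR, against 1, 1 and 9 with NPM1 KD. Both groups therefore held libraries with hardly a read beside libraries with many, and they overlapped. The normalised count was 5.65 ± 3.78 (SD, n = 3) in CTR and 3.95 ± 4.69 (SD, n = 3) in NPM1 KD (exact permutation p = 0.8). The ratio of NPM1 KD over CTR was 0.781 with a counting interval of 0.338 to 1.71. This spread between libraries is invisible in the rlog values, which were 2 throughout.

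*Mllt1* (ENSMUSG00000024212), encoding the YEATS reader ENL, had 1, 2 and 4 reads in CTR and 1, 5 and 2 in NPM1 KD. The groups overlapped, with the lowest count of 1 in both. Its normalised count was 1.98 ± 1.44 (SD, n = 3) in CTR and 3.12 ± 2.53 (SD, n = 3) in NPM1 KD (exact permutation p = 0.6). The ratio was 1.62, with a counting interval from 0.514 to 5.26, and this depth cannot tell a decrease from a several-fold increase.

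*Aff1* (ENSMUSG00000029313), the other scaffold of the super elongation complex, had 8, 15 and 7 reads in CTR and 9, 10 and 10 in NPM1 KD. CTR replicate 2 lay among the NPM1 KD libraries once depth was taken into account, at a normalised count of 11.5 against 10.4 to 12, and the other CTR libraries lay lower, at 6.44 and 6.28. The group values were 8.08 ± 2.98 (SD, n = 3) in CTR and 11.3 ± 0.815 (SD, n = 3) in NPM1 KD (exact permutation p = 0.3). The ratio of 1.37 had a counting interval of 0.795 to 2.37.

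*Ell2* (ENSMUSG00000001542), an ELL elongation factor, was covered by 1 read in CTR replicate 1 and 0 reads in the other 5 libraries. Both groups were at or under 3 reads, the limit that a count of 0 allows, and no fold was formed. Among the 3 few-read genes with a ratio, *Mllt1* and *Aff1* had a ratio above 1 and *Mllt3* below. Each counting interval included 1. Over the 4339 genes with a mean normalized count of 2 to under 10, ratios had a median of 0.946 and quartiles of 0.625 and 1.42, so that *Mllt3* and *Aff1* lay between the quartiles and *Mllt1* above the upper one. In 0 of the 3 genes did the groups lie apart, against 19.3% of those 4339 genes (7.28% higher and 12% lower in NPM1 KD).

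**Figure D3:**
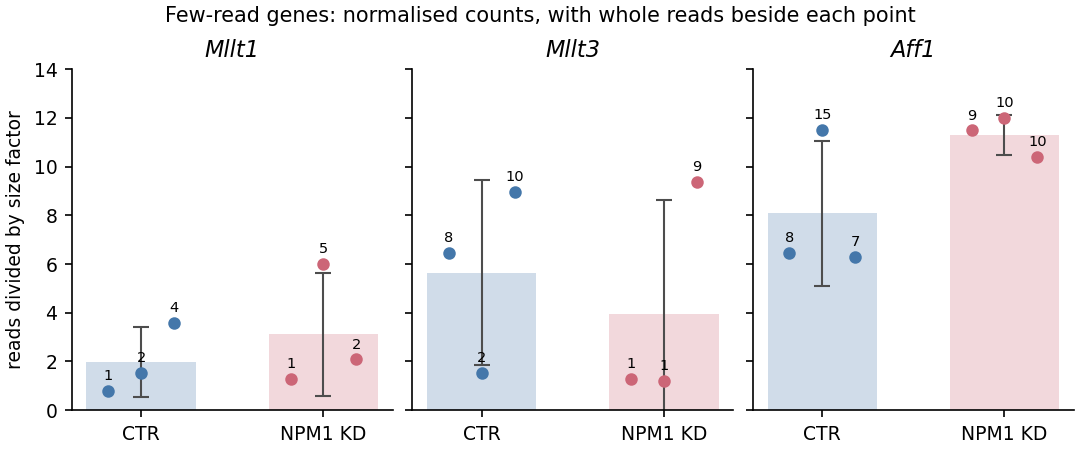
Reads divided by the size factor of the library (vertical axis, no unit) for Mllt1, Mllt3 and Aff1 in CTR and NPM1 KD; points are libraries with their whole reads printed beside them, bars the mean and error bars the SD of 3 libraries, cut at 0. The points of the groups overlap in each gene, and Mllt3 ranges from 1 to 10 reads.

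The genes that act together with DOT1L and the super elongation complex were listed by role, 41 symbols of which 40 had a row and 24 were tested. By limma 0 of 24 were called, against 0.487% of all tested genes, and 2 of 24 had an unadjusted p under 0.05, against 14.1%. The mean was higher in NPM1 KD for 10, lower for 1 and equal for 13, where all tested genes had 24.6% higher, 27.4% lower and 48% equal means. One value in all 6 libraries was held by 10 of the 24, against 40.2% of all tested genes. The median difference was 0 both for the 24 and for all tested genes, and the mean difference was 0.17 for the 24 and −0.02 for all tested genes.

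*Cdk12* (ENSMUSG00000003119), a kinase of the RNA polymerase II tail that is known for its part in transcribing long genes, was 1 of 24 whose groups did not overlap (background 5.6%). It had the value 3 in each CTR library and 4 in each NPM1 KD library. The log2 difference was 1.00 (SE 0.39, 95% interval 0.24 to 1.76), and it did not pass the test in the fit with rounding allowed for (adjusted p = 0.166, limma). The call depends on how rounding and spread were handled, with adjusted p-values from 2.44e-09 without the lower limit on the variance to 0.388 without CTR replicate 1. *Ccnk*, which encodes the cyclin partner of CDK12, had the value 4 in all 6 libraries. The other gene with an unadjusted p under 0.05 was *Paf1*, a subunit of the PAF1 complex that travels with the polymerase. *Paf1* read 5, 4 and 4 in CTR against 5 in each NPM1 KD library, a log2 difference of 0.67 (SE 0.33, 95% interval 0.02 to 1.31, adjusted p = 0.33, limma). It is named here because its p was seen.

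By role, the tested genes lay within 1 step of 0. Of the pausing factors, the NELF subunits *Nelfa*, *Nelfb* and *Nelfe* and the DSIF subunit *Supt5* had a log2 difference of 0, and *Supt4a* of 0.33. Of the PAF1 complex and SPT6 group 3 of 6 had a higher mean and 3 equal means. Among the H2B ubiquitylation genes, whose mark is known to stimulate DOT1L, 3 of 5 had a higher mean (*Ube2a*, *Ube2b* and *Wac*, each 0.33), *Rnf40* was at 0 and *Rnf20* at −0.33. *Larp7*, which holds P-TEFb in its inactive form, was at 0.33. *Kmt2a*, the MLL methyltransferase, had the same values in both groups. The other super elongation complex subunits were mostly below the limit for a test, with *Aff2*, *Aff3* and *Ell3* listed at 0 and only *Eaf1* tested, at 0.33.

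**Figure D4:**
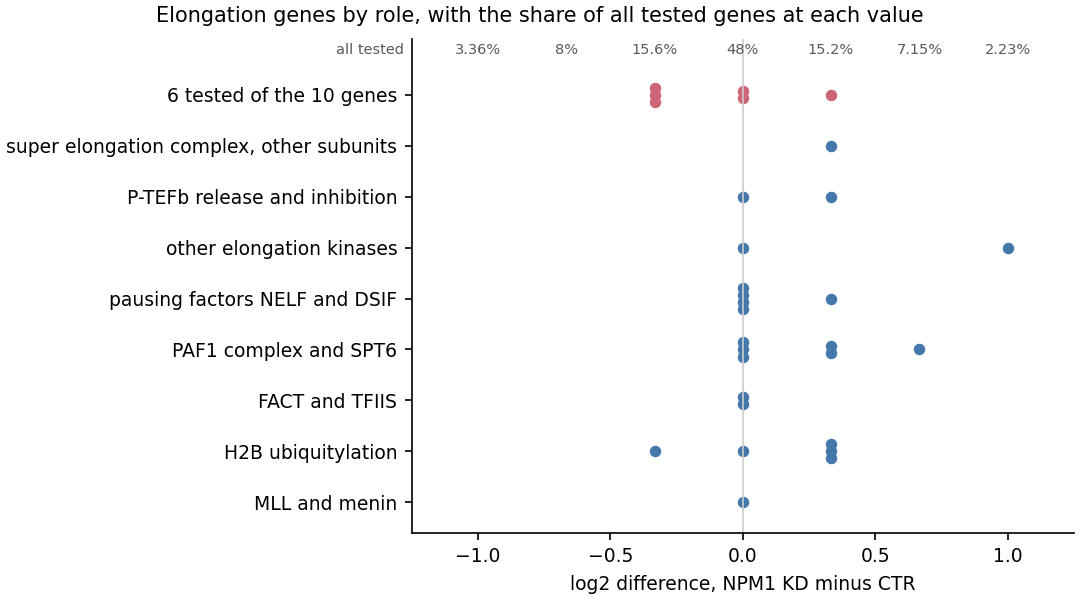
Log2 differences of NPM1 KD minus CTR (horizontal axis) for the 6 tested genes (red) and the 24 tested genes of the elongation list by role (blue), 1 point a gene; percentages on top are the share of all tested genes at each value. Most points lie at 0 or within 0.33 of it, and Cdk12 is the point at 1.00.

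Reads could be recovered for 11 further elongation genes with a mean normalized count of 2 to under 10. Their ratios of NPM1 KD over CTR ran from 0.591 to 1.81, with 6 above 1 and 5 below, and 0 of 11 counting intervals excluded 1. The libraries lay apart in 2 of 11, against 19.3% of genes in that range in either direction, so the count is near the background. Both genes were lower in NPM1 KD, a pattern held by 12% of genes in that range. One was *Ccnt2*, the alternative cyclin of CDK9, with 15, 15 and 11 reads in CTR and 3, 8 and 9 in NPM1 KD. Once divided by the size factors, its groups nearly met, at 9.87 in CTR replicate 3 and 9.61 in NPM1 KD replicate 2. The ratio of *Ccnt2* was 0.692 (counting interval 0.384 to 1.21, exact permutation p = 0.1, the smallest possible with 3 against 3). The other was *Psip1*, encoding a chromatin tether of MLL, with 10, 7 and 11 reads against 4, 4 and 5. Its ratio was 0.659 (counting interval 0.313 to 1.31, exact permutation p = 0.1). Here too the normalised counts nearly met, at 5.38 in CTR replicate 2 and 5.21 in NPM1 KD replicate 3. Both genes were singled out after their values were seen. The P-TEFb inhibitor *Hexim1* had 7, 8 and 9 reads in CTR and 6, 5 and 13 in NPM1 KD, and its groups overlapped.

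Because values are whole numbers, many genes shared the exact pattern of one of the 10 over the 6 libraries. The pattern of *Dot1l* was found in 44 other tested genes, of which *Fcf1*, *Uso1* and *Tmco1* were nearest in mean normalized count. For *Mllt10* there were 33, with *Rbms1*, *Itfg1* and *Ruvbl2* nearest, and for *Mllt6* 10, with *Acot7*, *Eif4b* and *Pcmt1*. *Ccnt1* shared its 6 values with 8 genes (nearest *Tnfaip1*, *Mettl14* and *Atp6v0b*) and *Cdk9* with 4 (nearest *Nucks1*, *Hsp90b1* and *Gm8606*). The value 5 throughout, as in *Aff4*, was held by 554 other genes. At this resolution the pattern of a gene over the libraries does not single it out.

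Markers matched the labelled line in part. Of 15 neuronal and sympathetic markers 9 had a mean normalized count of at least 10, among them *Hand2*, 2 (*Nefl* and *Nefm*) were listed at 0, and their summed level (2 to the power of the rlog value) was 1583 to 1681 in CTR and 1007 to 1071 in NPM1 KD. The part of this shift in the values above was not tested. Of fibroblast, leukocyte, endothelium and epithelium markers 12 of 21 were listed at 0, *Ptprc*, *Col1a2*, *Cdh5* and *Krt18* among them, and none reached a mean of 10. Of the 5752 tested genes 28 were called, 4 higher and 24 lower in NPM1 KD.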

How the data were processed

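RNA of N2a cells, in 3 CTR and 3 NPM1 KD libraries, was made into PCR-amplified cDNA and sequenced as nanopore long reads. The submitters' processing notes name minimap2, featureCounts, DESeq2 and GRCm39, and versions are not given in the sources used here. The authors deposited rlog values, treated here as a score because values of size 1 or more are rounded to whole numbers. The authors also deposited a mean normalized count per gene over all 6 libraries, together with the log2 fold change, its standard error, statistic, p-value and adjusted p-value of their own comparison, which were not used. PCR duplicates cannot be recognised without molecular identifiers, and the share of reads counted per library is unknown.

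Of 26913 rows, 257 repeated a gene ID with the same values and were merged, which left 26656 genes, 11880 of them at 0 in all libraries. The test was limma (version 3.58.1, under R 4.3.3), with eBayes moderation along an intensity trend, for every gene whose mean was no lower than log2 of 10. It was two-sided, with Benjamini-Hochberg adjustment over all genes in it and a threshold of 0.05. Variances within groups were raised to at least 0.0833, the variance that rounding adds. After moderation the SE depended on the mean level and not on the gene's own spread. For example, *Tcea1* (6 in each CTR library and 7, 5 and 6 in NPM1 KD) and *Cops5* (6 in all 6 libraries) both had an SE of 0.342. Differences are NPM1 KD minus CTR on the rlog scale, which understates changes of genes with few reads.

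Whole reads were recovered after the data had been seen. The mean normalized count is a sum of reads, each weighted by a step that depends on the size factor of its library, and genes with a single read give the 6 steps. Each step was assigned to its library by 1168 genes deposited with decimals (mean correlation within genes 0.998, next best of 720 assignments 0.651). All 4339 genes with a mean of 2 to under 10 had 1 solution at a tolerance of 1e-09. Recovery was tried only for means under 10, so no reads per library are given for the 6 tested genes. Ratios are of summed reads over summed size factors, with exact Clopper-Pearson 95% bounds.

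The 10 genes and all lists were chosen with earlier results of these data known. Named in full were the 10 genes, *Npm1*, elongation genes that were called or whose groups did not overlap, and for each of the 10 with unequal values the 3 tested genes of the same pattern nearest in mean normalized count. Genome positions and sequences are not given, since the annotation at hand is of another build than GRCm39. Alternatives were no lower limit on the variance, no trend, looser filters, centring, a replicate block and leaving out each library.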

Additional observations from a re-analysis of the deposited data

How the results depend on the processing

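Of the 6 tested genes 0 were called under each of the 12 alternatives, and *Npm1* was called lower under all of them. *Mllt1*, *Mllt3* and *Aff1* could be fitted only with the looser filters and *Ell2* only with no filter, and 0 of these were called there. The difference of *Dot1l* ranged from 0 to 0.50, with 0 without NPM1 KD replicate 1, and adjusted p-values from 0.576 to 1. *Ccnt1* took either sign when single libraries were left out, from −0.33 to 0.33. Over all tested genes, 4 were called higher and 24 lower in the fit reported. Without the lower limit on the variance these were 123 and 178, without the trend 132 and 218, and with no filter 1 and 10. Leaving out single libraries gave 0 to 2 higher and 5 to 9 lower. Without CTR replicate 1 or 2 the count of 0 higher stands beside 449 or 514 genes with an unadjusted p under 0.05 in either direction. Elongation list genes called were 1 without the variance limit and 1 without the trend, *Cdk12* in both (adjusted p 2.44e-09 and 0.0304), and 0 otherwise. For libraries with the same replicate number, deviations from the group mean had correlations near 0 (r = 0.00887, 0.00128 and 0.0298 over genes). The values are rounded to whole numbers and 40.2% of tested genes had no deviation, so a shared batch could be missed. Whether the numbers pair the libraries was thus not decided. A fit with the replicate number as a block called 1 gene higher and 7 lower, gave *Npm1* −2 (adjusted p = 0.000247) and *Dot1l* 0.33 (adjusted p = 0.832), and called 0 of the 6 tested genes. Rounding limits what a library can show to steps of 1, and few reads limit *Mllt1*, *Mllt3*, *Aff1* and *Ell2*. The cause of the shifts was not tested.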
